A study of Mus musculus with 9 samples.

Results

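The Toll-like receptor genes were taken as the 10 rows of the count table named Tlr1 to Tlr9 and Tlr13, chosen by gene name from a table of 56860 genes, and all 10 were among the 19348 genes tested. RNA had been sequenced from mouse spleen cells described as CD4+ T cells, in 9 libraries that form 3 groups of 3. The groups were a control, a group labelled CIA, and a group labelled CIA that also received the flavone luteolin. The labels do not spell out CIA, but the series title names RA. Strain, age, dose and whether a replicate is an animal or a pool are not given in the sources used here, so the tests rest on the variation among the deposited samples, which may be technical.

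Toll-like receptors are transmembrane proteins with a leucine-rich ectodomain that binds microbial molecules and a cytoplasmic TIR domain that recruits adaptors. One set sits at the cell surface and reads lipids, lipoproteins and flagellin. The other sits in endosomes and reads nucleic acids, after the chaperone encoded by Unc93b1 has carried it there. In spleen the family is best known from macrophages, dendritic cells, neutrophils and B cells, and B cells carry Tlr9, Tlr7 and the coreceptor-like Cd180.

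The total of each library lay between 31234177 and 41815573 counts. Markers of many cells were present. Cd4 was at 2.92 ± 0.639 CPM (the usual unit of counts scaled to library size, here with TMM factors; mean ± SD, n = 3) in control, 128 ± 39.6 in CIA and 104 ± 4.57 with luteolin, 43.6-fold higher in CIA than in control. The level in the libraries labelled control goes against their label of CD4+ T cells. Every comparison with control below is one with the libraries that carry that label. Their marker sums also differ from those of the other groups. The label is uncertain for the other groups as well. Neutrophil sums exceeded T cell sums in CIA (5872 to 10050 against 385 to 602 CPM) and with luteolin (7596 to 8095 against 379 to 402 CPM). Sums over different genes give no cell share, but luteolin against CIA is likewise a comparison of libraries that carry the label. The summed level of 8 B cell markers was 1938 to 2036 CPM in control, 285 to 1720 in CIA and 394 to 493 with luteolin. For 10 neutrophil markers it was 1912 to 2312, 5872 to 10050 and 7596 to 8095 CPM. For 6 monocyte markers it was 385 to 478, 1183 to 2843 and 2360 to 2682 CPM, and for 8 macrophage markers 122 to 175, 46.8 to 52.7 and 235 to 268 CPM. The 8 T cell markers summed to 207 to 226, 385 to 602 and 379 to 402 CPM, and 6 plasmacytoid dendritic cell markers to 37.8 to 39.4, 16.5 to 25.6 and 20.5 to 24.5 CPM. Of these last, Klk1 had no count in CIA, and Cd209a of the conventional dendritic cell list had none in CIA or with luteolin. The 3 CIA libraries were the least alike: replicate 1 had the highest B cell sum, 1720 CPM, and replicate 3 the lowest, 285 CPM, with 989 CPM in replicate 2. In bulk libraries of this kind fewer cells of a type and less RNA per cell cannot be told apart.

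The promoters of 4 receptors are shown first, so that the reader can set the sequences beside the values below. The family did not move as a block, though of these 4 Tlr2 and Tlr8 were called in the same comparisons and direction. Each is the RefSeq window of 250 bases before to 50 after the start site on build GRCm38.p6, 5′ to 3′ on the gene's strand. The build differs from that of the count table. Of the 10 members 8 had a window, 10 windows in all. Capitals mark 5 motifs searched on both strands: the octamer ATGCAAAT, the PU box GAGGAA, the interferon response motif GAAANNGAA, the AP-1 site TGANTCA and the NF-kB consensus.
Tlr9, chr9:106222348-106222647, plus strand: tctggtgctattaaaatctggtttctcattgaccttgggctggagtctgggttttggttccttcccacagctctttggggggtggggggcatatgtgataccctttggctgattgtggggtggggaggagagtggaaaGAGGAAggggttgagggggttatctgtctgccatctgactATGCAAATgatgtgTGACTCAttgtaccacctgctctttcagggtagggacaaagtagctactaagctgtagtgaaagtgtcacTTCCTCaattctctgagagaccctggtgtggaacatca
Tlr13, chrX:106143025-106143324, plus strand: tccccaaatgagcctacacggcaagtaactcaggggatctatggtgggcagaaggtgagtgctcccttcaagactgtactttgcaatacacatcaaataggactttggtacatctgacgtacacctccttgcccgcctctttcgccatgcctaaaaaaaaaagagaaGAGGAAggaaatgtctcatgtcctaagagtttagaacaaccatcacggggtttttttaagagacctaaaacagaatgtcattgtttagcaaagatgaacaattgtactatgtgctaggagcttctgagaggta
Tlr2, chr3:83841559-83841858, minus strand: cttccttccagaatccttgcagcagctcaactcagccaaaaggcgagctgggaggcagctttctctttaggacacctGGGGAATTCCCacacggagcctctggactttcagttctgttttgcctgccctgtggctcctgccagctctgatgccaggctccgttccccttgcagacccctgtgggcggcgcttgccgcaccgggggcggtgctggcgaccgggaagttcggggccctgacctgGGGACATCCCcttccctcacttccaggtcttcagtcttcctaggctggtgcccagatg
Tlr8, chrX:167264280-167264579, minus strand: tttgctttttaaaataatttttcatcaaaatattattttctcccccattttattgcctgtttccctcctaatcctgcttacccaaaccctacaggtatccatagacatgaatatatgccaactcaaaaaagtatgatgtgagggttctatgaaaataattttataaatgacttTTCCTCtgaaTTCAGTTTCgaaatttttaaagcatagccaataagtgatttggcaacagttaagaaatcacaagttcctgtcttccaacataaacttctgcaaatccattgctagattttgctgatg

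The Tlr9 window was the only member window with the octamer, a motif read by OCT factors, at position -72 from the start site. It also held an AP-1 match at -58 and PU boxes, the motif of the myeloid and B cell factor PU.1, at -112 and 13. The Tlr13 window held a PU box at -83, and the Tlr8 window a PU box at -77 and an interferon response match at -67. In the Tlr2 window overlapping NF-kB matches lay in a stretch that begins at -173 and another at -8. Over all 32851 windows of this length, the octamer was in 1.7%, the PU box in 28.3%, the interferon response motif in 8.6%, AP-1 in 7.8% and NF-kB in 8.5%. Among the 10 member windows these were 1, 4, 2, 1 and 2, and no difference from those shares was tested. The matches describe letters only, and the motifs were picked after the sequences had been read.

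In control the family was led, per length, by Tlr7, Tlr9 and Tlr1. Their levels were 12.01, 11.7 and 10.8 CPM per kilobase of gene length (means of 3), and their libraries overlapped. Tlr2 (5.27), Tlr4 (4.79), Tlr13 (4.20) and Tlr6 (3.99 CPM per kilobase) followed. Of these neighbours, Tlr2 overlapped with Tlr4 and Tlr13 with Tlr6, while Tlr4 and Tlr13 all but touched. The lowest Tlr4 library was at 4.452 and the highest Tlr13 library at 4.449 CPM per kilobase. Tlr3 (0.297) and Tlr8 (0.234) overlapped with each other, and Tlr5 (0.0297 CPM per kilobase) lay below them all. In CIA the order was different. Tlr13 (12.5) and Tlr4 (12.3 CPM per kilobase) came first, then Tlr9 (7.75), Tlr7 (6.31), Tlr2 (5.98), Tlr1 (5.52) and Tlr6 (4.23), each overlapping the next. Tlr8 (0.286), Tlr5 (0.138) and Tlr3 (0.0706 CPM per kilobase) were lowest. Tlr8 overlapped with Tlr5 and Tlr5 with Tlr3, but Tlr8 overlapped with neither Tlr3 nor Tlr6. With luteolin Tlr2 stood alone at the top, at 16.04 CPM per kilobase, above Tlr7 (11.6), Tlr4 (10.6) and Tlr13 (10.52), which overlapped in turn. Below a gap came Tlr1 (4.56), Tlr9 (4.17) and Tlr6 (3.80), then Tlr8 (1.95), Tlr3 (0.266) and Tlr5 (0.0473 CPM per kilobase), the last 3 without overlap.

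**Figure D1:**
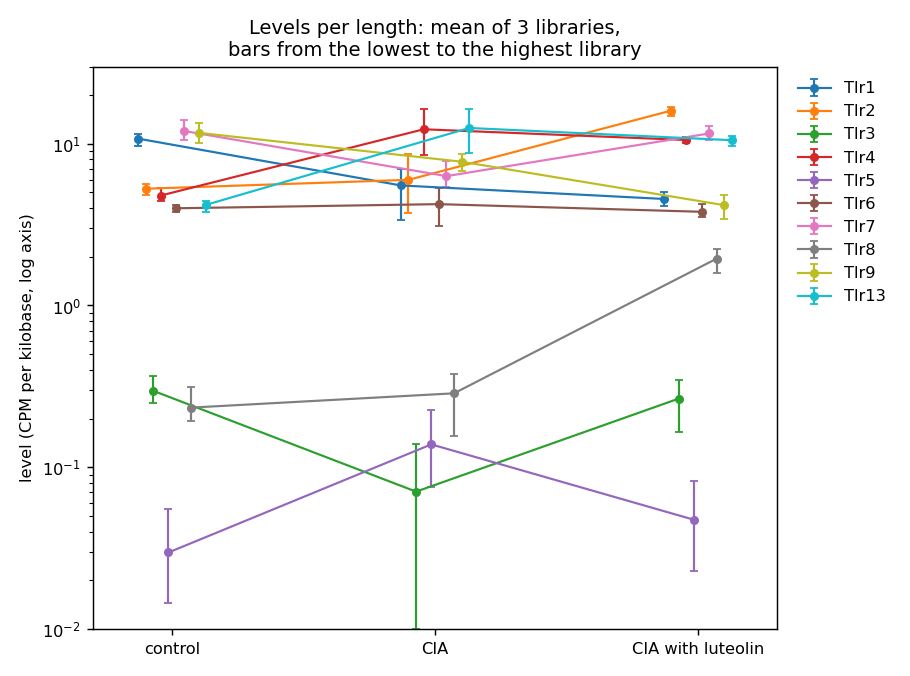
Level per length (CPM per kilobase, log axis) of the 10 receptors in control, CIA and CIA with luteolin; points are means of 3 libraries, bars run from the lowest to the highest library, and the Tlr3 bar in CIA runs off the axis because 1 library had no count. Tlr7 and Tlr9 head the control group, Tlr13 and Tlr4 the CIA group and Tlr2 the luteolin group, where it is at 16.04 CPM per kilobase.

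Summed per length, the family was at 53.3 ± 3.26 CPM per kilobase in control, 55.1 ± 7.29 in CIA and 63.5 ± 2.65 with luteolin (SD, n = 3). The luteolin libraries, at 61.0, 63.1 and 66.3, lay above those of control, at 51.0, 51.8 and 57.0, and overlapped with those of CIA, at 48.3, 54.2 and 62.8. The 5 receptors of endosomes (Tlr3, Tlr7, Tlr8, Tlr9 and Tlr13) made up 51.0%, 52.0% and 56.7% of this sum in control. Their share was 53.4%, 48.0% and 46.2% in CIA and 42.6%, 45.7% and 46.1% with luteolin. Every luteolin library was below every control and CIA library in this share, by a narrow margin for the lowest CIA library. CIA overlapped with control. A lower share is not a lower level. With luteolin against CIA, Tlr3, Tlr7 and Tlr8 were called higher and Tlr9 lower, and Tlr13 did not pass. Outside this set, Tlr2 was at 5.98 CPM per kilobase in CIA and 16.04 with luteolin.

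Comparing CIA with control asks which receptors differ in the disease group. In edgeR's quasi-likelihood test with Benjamini-Hochberg adjustment over all genes, 7 of the 10 receptors passed a threshold of 0.05, 3 higher and 4 lower. Of all genes tested 51.1% passed, 26.6% higher and 24.5% lower. The groups did not overlap for the same number, 7 of 10 receptors, against 58.7% of all genes. With so many genes changed, these counts show nothing particular to the family, and the direction and size of each receptor's change follow below. The median log2 fold change was 0.13 over the 10 receptors and -0.01 over all genes tested. CIA with luteolin against CIA asks which receptors differ between the CIA libraries with and without luteolin, whose macrophage sums do not overlap either. Whether the treatment or the cell makeup of the libraries accounts for a difference was not tested. Here 5 of 10 receptors passed, 4 higher and 1 lower, against 47.3% of all genes, 23.1% higher and 24.2% lower, and 5 of 10 did not overlap against 55.7%. The median was -0.19 over the receptors and -0.04 over all genes. Without CIA replicate 1, 8 of 10 passed in this comparison, 4 higher and 4 lower. The share of all genes that passed without that library is not given here, so nothing about the family is read from this count. In CIA with luteolin against control 6 of 10 passed, 4 higher and 2 lower, against 45.0% of all genes, 24.2% higher and 20.8% lower, and 6 of 10 did not overlap against 63.3%. The 3 comparisons share libraries in pairs, so their values are given side by side and not as independent results.

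**Figure D2:**
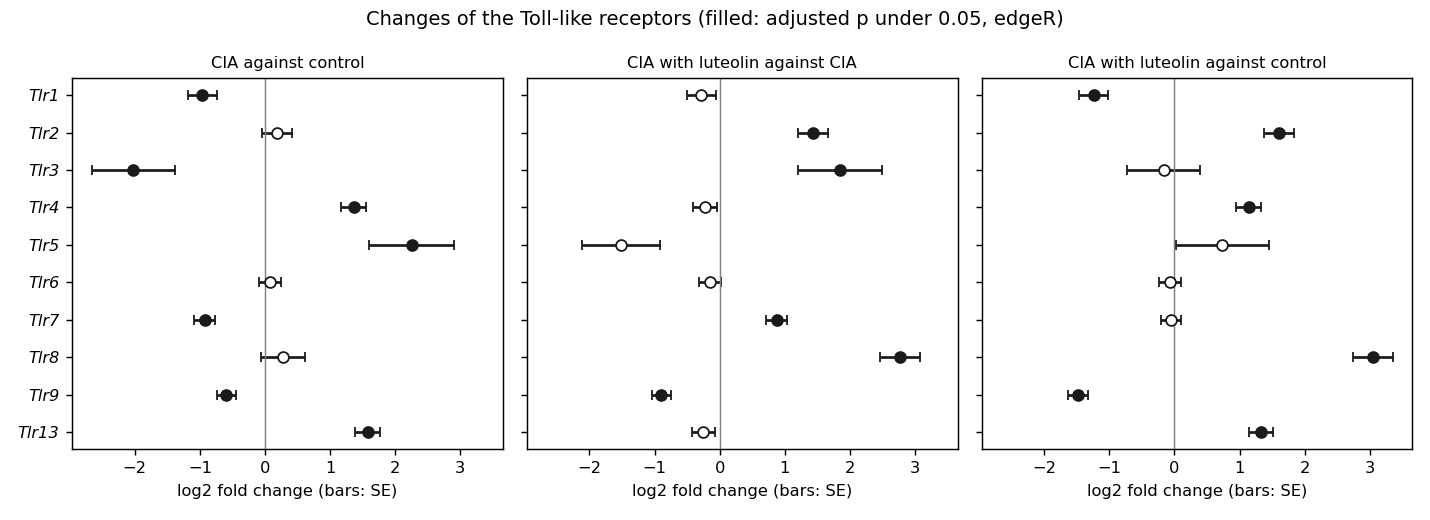
Log2 fold changes with SE from edgeR for the 10 receptors in each comparison; filled points passed an adjusted p of 0.05. In CIA against control Tlr4, Tlr5 and Tlr13 are higher and Tlr1, Tlr3, Tlr7 and Tlr9 lower, and with luteolin against CIA Tlr8 has the highest change, 2.77.

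Of the surface receptors Tlr4 comes first, the receptor for bacterial lipopolysaccharide (chr4:66745821-66848521 on mm39, plus strand). It held 24.7, 25.3 and 29.8 CPM in control, 47.6, 66.5 and 90.8 in CIA and 58.5, 56.2 and 61.2 with luteolin. All CIA and luteolin libraries were above all control libraries, and the luteolin values lay inside the range of CIA. Tlr4 rose 2.57-fold in CIA over control (log2 fold change 1.36 ± 0.19 SE, adjusted p = 0.000268). With luteolin it was 2.20-fold above control (1.14 ± 0.19, adjusted p = 0.000794), and the change against CIA was -0.22 ± 0.19 (adjusted p = 0.357). The latter was -0.42 and called lower without CIA replicate 1. In the same libraries the neutrophil sum was lowest in CIA replicate 1, at 5872 CPM, and highest in CIA replicate 3, at 10050 CPM, as was Tlr4. The monocyte sum (1183 and 2843 CPM) and the T cell sum (385 and 602 CPM) were also lowest and highest in these replicates, and the B cell sum ran the other way. S100a9 made up the largest part of the neutrophil sum, at 6744 ± 1806 CPM in CIA. All 10 neutrophil markers rose in CIA, and with luteolin against CIA 3 rose and 6 fell. The part of these cells in the rise of Tlr4 was not tested.

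Tlr2 (chr3:83743579-83749074, minus strand), the receptor for lipoproteins that pairs with Tlr1 or Tlr6, held 14.5, 16.3 and 16.9 CPM in control and 11.3, 16.9 and 25.9 in CIA. With luteolin it was at 50.6, 44.7 and 49.7 CPM. Control and CIA overlapped, whereas each luteolin library was above all 6 others. The rise with luteolin was 2.69-fold over CIA (1.43 ± 0.23, adjusted p = 0.000610) and 3.04-fold over control (1.61 ± 0.23, adjusted p = 0.000331). CIA against control did not pass (0.18 ± 0.23, adjusted p = 0.538), but at 0.42 it was called higher without CIA replicate 1. Beside this, 5 of 6 monocyte and 7 of 8 macrophage markers rose with luteolin over CIA. The macrophage sums were 46.8 to 52.7 CPM in CIA and 235 to 268 CPM with luteolin. The monocyte sums, mostly Lyz2, overlapped, at 1183 to 2843 and 2360 to 2682 CPM. The part of these cells in the rise of Tlr2 was not tested.

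The partners of Tlr2 went other ways. Tlr1 (chr5:65082022-65090906, minus strand) held 38.6, 37.2 and 32.2 CPM in control, 23.5, 20.7 and 11.3 in CIA and 13.8, 16.8 and 15.2 with luteolin. It fell in CIA (-0.96 ± 0.22, adjusted p = 0.00414) and was 2.36-fold below control with luteolin (-1.24 ± 0.22, adjusted p = 0.00110). Luteolin against CIA did not pass (-0.28 ± 0.22, adjusted p = 0.316), except without CIA replicate 3, where the change was -0.54 and called. Tlr1 was lowest in CIA replicate 3, the library with the lowest B cell sum, and the part of B cells was not tested. Tlr6 (chr5:65109374-65117440, minus strand), the next receptor gene on the chromosome, held 15.5, 14.1 and 15 CPM in control. In CIA it was at 11.6, 15.8 and 19.9 and with luteolin at 13.2, 15.7 and 13.5 CPM. No comparison of Tlr6 passed, with changes of 0.08 ± 0.17, -0.16 ± 0.17 and -0.07 ± 0.17 (adjusted p = 0.704, 0.481 and 0.758). All 3 groups of Tlr6 overlapped. In GENCODE M21 transcripts 8.85% of the 100-base windows of Tlr1 occur unchanged in Tlr6, and 7.24% of those of Tlr6 in Tlr1, so part of their reads cannot be assigned to either and how such reads were counted is not stated. No other pair among the 10 shared a window of that length.

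Per length, the ratio of Tlr2 to Tlr1 was 0.416, 0.486 and 0.582 in control and 4.08, 2.96 and 3.64 with luteolin. In CIA it ran from 0.534 through 0.905 to 2.55, the widest of the 3 groups, and replicate 3 held the highest ratio. Against Tlr6 the ratio of Tlr2 was 1.15, 1.43 and 1.39 in control, 1.201, 1.32 and 1.61 in CIA and 4.75, 3.51 and 4.54 with luteolin. Luteolin libraries were thus apart from all others in both ratios.

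Tlr5 (chr1:182782353-182804010, plus strand), the flagellin receptor, was near the limit of detection, with 3, 4 and 9 counts in control, 14, 40 and 18 in CIA and 8, 17 and 4 with luteolin. Each CIA library was above each control library, at 0.389 to 1.17 against 0.0750 to 0.285 CPM, and luteolin overlapped with both. The rise in CIA passed (2.25 ± 0.65, adjusted p = 0.0147) but not without control replicate 1 (1.91), control replicate 2 (2.03) or CIA replicate 2 (1.70). Luteolin against CIA did not pass (-1.52 ± 0.60, adjusted p = 0.0593), though it was called lower without CIA replicate 1 (-1.82), without luteolin replicate 2 (-2.12) and with no filter on low counts (-1.49). The depth cannot settle this gene.

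**Figure D3:**
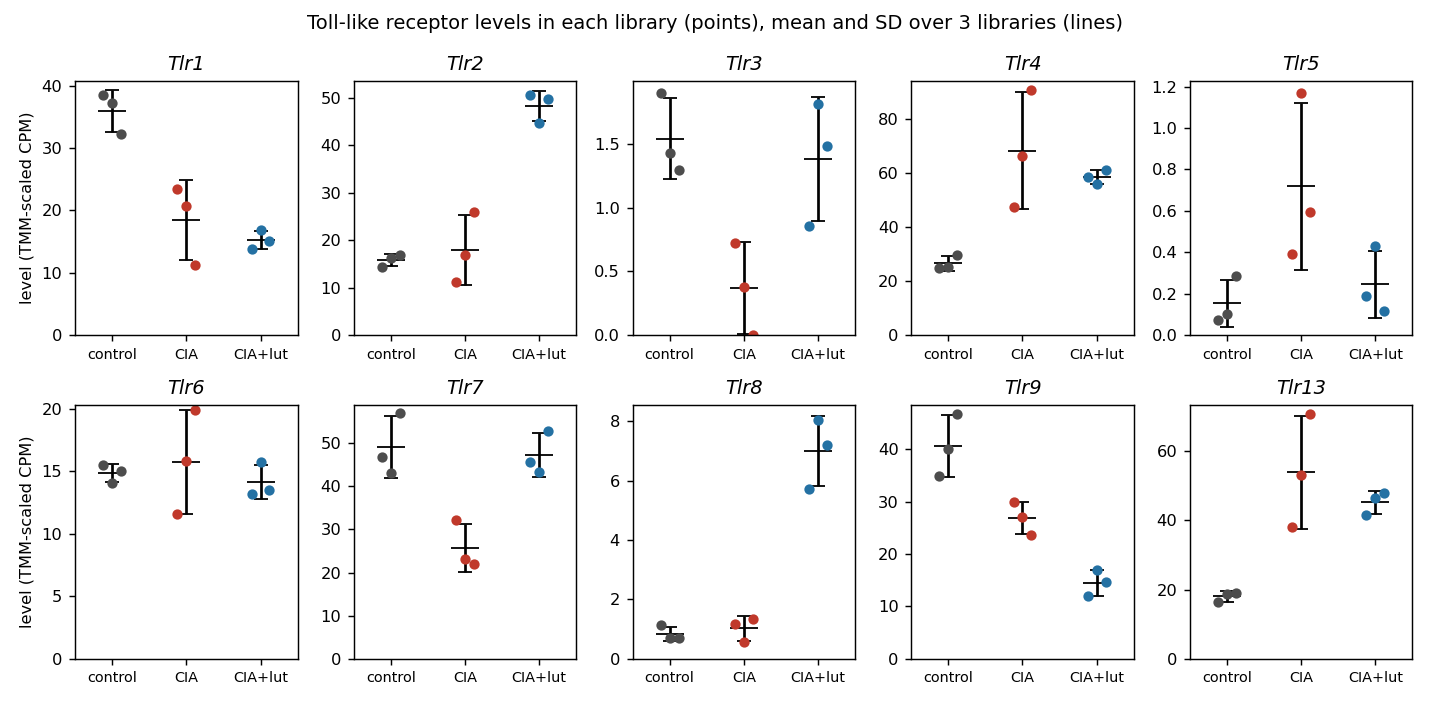
Level of each receptor in every library (points, TMM-scaled CPM) with the mean and SD over 3 libraries (lines), for control, CIA and CIA with luteolin (CIA+lut). Tlr2 and Tlr8 are highest with luteolin, at 44.7 to 50.6 and 5.72 to 8.05 CPM, Tlr3 and Tlr7 lowest in CIA, and Tlr9 lowest with luteolin.

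Among the receptors of endosomes, Tlr9, which reads unmethylated CpG DNA (chr9:106099797-106104082, plus strand), was the only member called lower in both CIA against control and luteolin against CIA. It held 35.0, 40.0 and 46.8 CPM in control, 29.97, 27.1 and 23.8 in CIA and 11.9, 16.9 and 14.7 with luteolin, so that no groups overlapped. The changes were -0.59 ± 0.15 in CIA (adjusted p = 0.00746), -0.90 ± 0.15 with luteolin against CIA (adjusted p = 0.000820) and -1.49 ± 0.15 against control (adjusted p = 3.78e-05). B cell markers fell as well: 4 of 8 in CIA, 4 of 8 with luteolin against CIA and all 8 against control. The B cell sums were 1938 to 2036 CPM in control, 285 to 1720 in CIA and 394 to 493 with luteolin. The part of B cells in the fall of Tlr9 was not tested.

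Tlr7 (chrX:166087925-166113554, minus strand), the receptor for guanosine-rich single-stranded RNA, went down and up again. It held 46.9, 43.2 and 57.1 CPM in control, 32.1, 23.2 and 21.9 in CIA and 45.7, 43.3 and 52.9 with luteolin. CIA was below both other groups without overlap, and luteolin lay close to control. Tlr7 fell in CIA (-0.93 ± 0.16, adjusted p = 0.000819) and rose with luteolin over CIA (0.88 ± 0.16, adjusted p = 0.00117). Luteolin against control gave -0.05 ± 0.16 (adjusted p = 0.809). Set beside Tlr9 per length, the ratio of Tlr7 to Tlr9 was 1.14, 0.919 and 1.04 in control and 0.913, 0.731 and 0.786 in CIA, but 3.27, 2.18 and 3.07 with luteolin. B cell sums were low in those luteolin libraries, at 394 to 493 CPM, while macrophage sums, at 235 to 268 CPM, were above those of all other libraries. Conventional dendritic cell sums were 35.2 to 37.0 CPM in control, 19.5 to 28.8 in CIA and 43.7 to 49.3 with luteolin. Of the 5 tested markers of that list, 1 rose and 2 fell in CIA. With luteolin against CIA 2 rose and 1 fell. The part of these cells in the rise of Tlr7 was not tested.

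Tlr8 (chrX:166025692-166047325, minus strand), which lies next to Tlr7 and reads RNA breakdown products, had the largest change of the family with luteolin. Its counts were 45, 27 and 22 in control, 42, 19 and 41 in CIA and 241, 320 and 243 with luteolin, that is 1.13, 0.692 and 0.696 CPM, 1.17, 0.556 and 1.36, and 5.72, 8.05 and 7.22. The 6 other libraries overlapped and all lay below the luteolin libraries. It rose 6.83-fold over CIA (2.77 ± 0.30, adjusted p = 4.52e-05) and 8.26-fold over control (3.05 ± 0.31, adjusted p = 3.30e-05), and CIA against control did not pass (0.28 ± 0.34, adjusted p = 0.518). The ratio of Tlr7 to Tlr8 per length was 36.6, 54.9 and 72.0 in control, 24.2, 36.7 and 14.2 in CIA and 7.01, 4.72 and 6.44 with luteolin. CIA overlapped with control, and all luteolin libraries were lower. Beside this, 5 of 6 monocyte markers rose with luteolin over CIA, with a median log2 fold change of 2.36 over the list. The summed level, 1183 to 2843 CPM in CIA and 2360 to 2682 with luteolin, was mostly Lyz2, the lysozyme gene that neutrophils also express, at 1890 ± 818 and 2160 ± 150 CPM, and so says little of the other markers. Among those, Fcgr1, a high-affinity antibody receptor, was at 0.850 ± 0.450 CPM in CIA and 16.7 ± 0.947 with luteolin, and Cx3cr1, a chemokine receptor, at 2.39 ± 0.149 and 16.6 ± 1.17 CPM. The part of monocytes in the rise of Tlr8 was not tested.

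Tlr13 (chrX:105186810-105204099, plus strand), a mouse receptor for bacterial ribosomal RNA, followed the pattern of Tlr4. It held 16.3, 18.8 and 19.2 CPM in control, 38.0, 53.0 and 70.7 in CIA and 41.6, 46.5 and 47.8 with luteolin. The rise in CIA was 2.98-fold (1.58 ± 0.19, adjusted p = 0.000108), and luteolin was 2.51-fold above control (1.33 ± 0.19, adjusted p = 0.000281). Luteolin against CIA gave -0.25 ± 0.18 (adjusted p = 0.281), and -0.44 with a call of lower without CIA replicate 1. Both treated and untreated CIA libraries were above every control library for Tlr13.

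Tlr3 (chr8:45848702-45864117, minus strand), the receptor for double-stranded RNA and the one that uses the adaptor of Ticam1 instead of Myd88, was scarce. It had 76, 56 and 41 counts in control, 26, 13 and 0 in CIA and 36, 72 and 50 with luteolin. The CIA libraries, at 0.723, 0.380 and 0 CPM, were below all others, which ran from 0.854 to 1.90 CPM. A count of 0 in CIA replicate 3 allows up to 3 counts, 0.0993 CPM, or 6 counts and 0.199 CPM should each mate have been counted, for counting error only. Tlr3 fell in CIA (-2.02 ± 0.64, adjusted p = 0.0226) and rose with luteolin over CIA (1.85 ± 0.64, adjusted p = 0.0355), with -0.17 ± 0.56 against control (adjusted p = 0.833). The fall was not called without control replicate 1 (-1.85), without CIA replicate 2 (-2.02) or in a fit of the 6 libraries of these 2 groups alone (-2.02). The rise was not called without CIA replicate 2 (1.86), luteolin replicate 2 (1.66) or luteolin replicate 3 (1.81), nor in the fit of 6 libraries (1.89). Without CIA replicate 1 the changes were -2.94 and 2.78. Tlr3 is the only member that shares exonic bases with another gene, 381 of 5207 with Gm45542 on the opposite strand, a gene with 60 counts over all libraries against 370 for Tlr3.

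**Figure D4:**
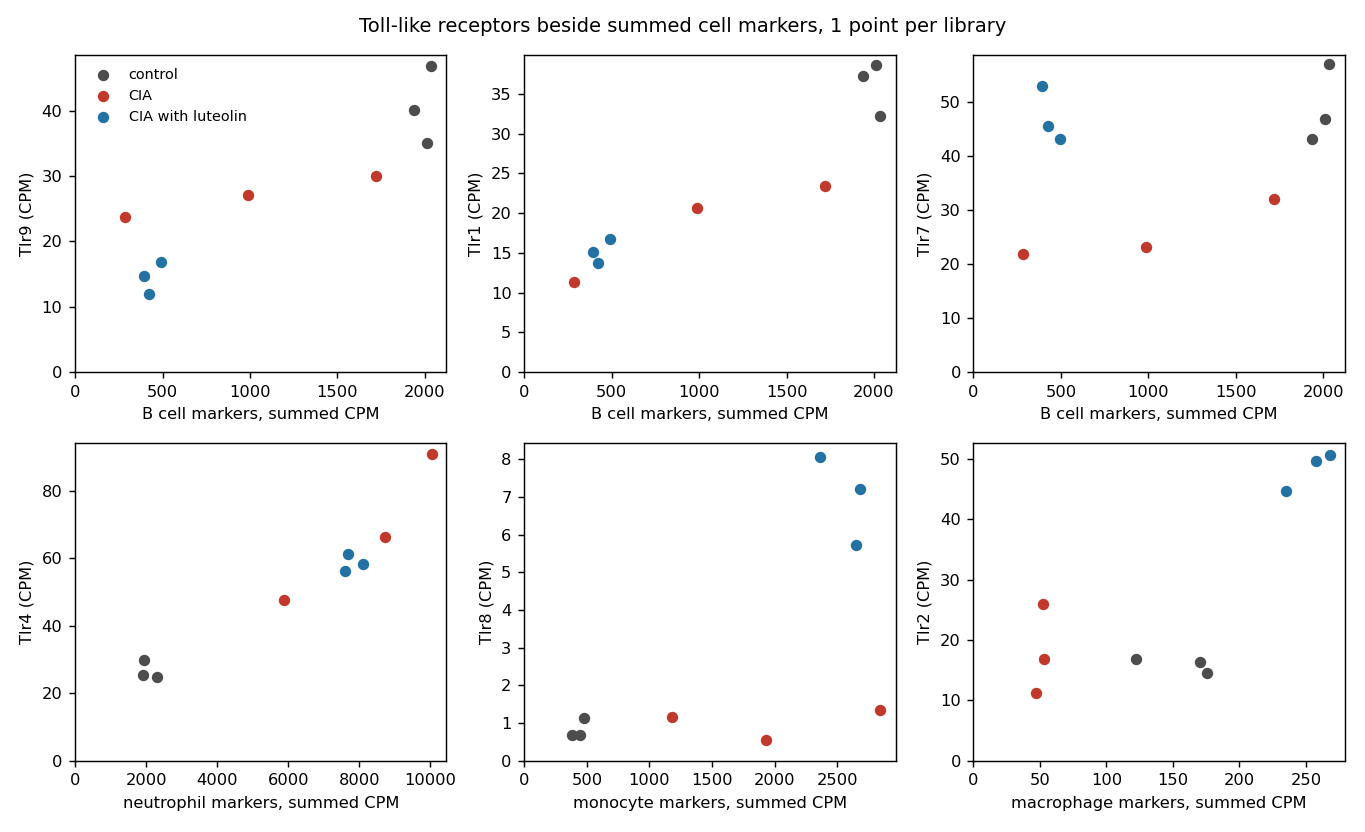
Level of 6 receptors (CPM) against the summed level of cell markers in the same library (CPM), 1 point per library, coloured by group. Tlr1 and Tlr9 are highest in the control libraries, where B cell sums are also highest. In CIA replicate 3, with the lowest B cell sum (285 CPM), Tlr9 is at 23.8 CPM, above every luteolin library. Tlr7 is high in the luteolin libraries although their B cell sums are 394 to 493 CPM, and Tlr8 is at 5.72 to 8.05 CPM with luteolin. The monocyte sum is mostly Lyz2, and S100a9 is the largest part of the neutrophil sum.

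The genes most like each receptor were found by Pearson's r of log2 CPM over the 9 libraries, a description in which the 3 groups dominate. For Tlr4 they were Pgd, Rab11a and Adam17 (r = 0.996, 0.994 and 0.994), and for Tlr13 Ccdc88b, Myom1 and Atg9a (0.995, 0.995 and 0.993). For Tlr2 they were Adora2b, Hdlbp and Grn (0.995, 0.993 and 0.993), and for Tlr8 Spint1, Prtn3 and Cnih4 (0.992, 0.992 and 0.990). For Tlr9 they were Rpl6, Nfatc1 and Klf12 (0.990, 0.985 and 0.983), for Tlr1 Hdac10, Zcchc7 and Add3 (0.996, 0.995 and 0.994) and for Tlr7 Cisd2, Dera and Zfp422 (0.985, 0.977 and 0.974). The lists for Tlr3 (Tubgcp5, Cd48 and Snx19), Tlr5 (Gnal and Oxr1) and Tlr6 (Ikbkg, Mfsd11 and Adhfe1) began at 0.988, 0.960 and 0.920. Both remaining receptor genes of the mouse table were low: Tlr11 had 0 to 2 counts per library and was not tested, and Tlr12 passed in luteolin against control (-1.11 ± 0.32, adjusted p = 0.0160), not without control replicate 1 (-1.05), control replicate 2 (-0.996) or luteolin replicate 2 (-0.91). In CIA against control Tlr12 gave -0.79 ± 0.32 (adjusted p = 0.0573), which passed without control replicate 3 (-0.95) or CIA replicate 1 (-1.23), with no filter (-0.80), with counts halved (-0.78) and with the replicate block (-0.84).

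Genes that carry, load and read out the receptors were followed in 8 lists with 82 genes, 81 of them tested. In CIA against control 30 rose and 26 fell, with a median log2 fold change of 0.04. In luteolin against CIA 28 rose and 20 fell, with a median of -0.01, and in luteolin against control 32 rose and 18 fell, with a median of 0.13. Beside the counts here and in each list below stand the shares of all genes tested. These were 26.6% higher and 24.5% lower in CIA against control, and 23.1% and 24.2% in luteolin against CIA. In luteolin against control they were 24.2% and 20.8%. The lists were drawn up with earlier results of these data in view, so nothing is read from these totals and each list is described by its members.

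Of 6 chaperones and trafficking genes, 4 fell and none rose in CIA (median -0.48), where 24.5% of all genes fell. With luteolin against CIA 5 rose and none fell (median 0.70), where 23.1% of all genes rose. The remaining gene, Slc15a4, an endosomal transporter, passed in neither, with -0.47 ± 0.22 and -0.25 ± 0.22 (adjusted p = 0.0972 and 0.385). Unc93b1, which escorts the endosomal receptors, went from 288 ± 9.98 CPM in control to 116 ± 32.4 in CIA (-1.31 ± 0.17, adjusted p = 0.000150) and 191 ± 11.8 with luteolin (0.72 ± 0.16 against CIA, adjusted p = 0.00462). Hsp90b1, the endoplasmic reticulum chaperone gp96, fell from 2555 ± 187 to 1817 ± 68.4 and rose to 3717 ± 80.4 CPM. Ap3b1, a subunit of the AP-3 sorting complex, changed by -0.32 ± 0.07 and 0.68 ± 0.08. Lrrc59, a ribosome-bound membrane protein, did not pass in CIA (-0.08 ± 0.10) and rose with luteolin (0.84 ± 0.10).

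Endosomal proteases and nucleases, which cleave the receptors or their ligands, fell in 5 of 9 and rose in 2 of 9 cases in CIA (median -0.47), and 5 rose and none fell with luteolin against CIA (median 0.59). Ctss, the protease cathepsin S, was at 732 ± 87.4 CPM in control, 207 ± 95.0 in CIA and 1898 ± 98.7 with luteolin. It changed by -1.82 ± 0.26 and 3.20 ± 0.27 (adjusted p = 0.000290 and 8.27e-06). The RNases Rnaset2a and Rnaset2b, near-identical copies whose counts are uncertain for that reason, changed by -0.55 ± 0.12 and -0.44 ± 0.11 in CIA and by 1.18 ± 0.13 and 1.15 ± 0.11 with luteolin. Dnase2a, a lysosomal DNase, fell in CIA (-0.47 ± 0.09) and gave -0.21 ± 0.09 with luteolin (adjusted p = 0.0859).

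Of 6 adaptors, 2 rose and 1 fell in CIA (median 0.07), and 1 rose and 1 fell with luteolin against CIA (median -0.10). Ticam2, which links Tlr4 to the Ticam1 branch, was at 27.4 ± 2.31 CPM in control, 10.48 ± 1.22 in CIA and 24.8 ± 0.457 with luteolin (-1.39 ± 0.11 and 1.24 ± 0.11, adjusted p = 1.01e-05 and 1.04e-05). Tirap, which brings Myd88 to the membrane, went the opposite way, from 14.8 ± 0.828 to 26.0 ± 3.35 and 17.7 ± 1.15 CPM (0.81 ± 0.11 and -0.55 ± 0.11). Myd88, the adaptor of most of the family, rose by 0.32 ± 0.11 in CIA (adjusted p = 0.0362), a call lost without control replicate 1 (0.29 on the log2 scale), control replicate 2 (0.28) or CIA replicate 3 (0.20), in the fit of 6 libraries (0.33) and with no filter (0.31). Its change with luteolin against CIA was 0.21 ± 0.11 (adjusted p = 0.147), called without CIA replicate 3 (0.33). Pik3ap1, an adaptor to PI3-kinase, did not pass in CIA (-0.06 ± 0.06) or with luteolin against CIA (-0.16 ± 0.06, adjusted p = 0.0518; -0.18 and called with counts halved).

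Among co-receptors and ligand carriers 3 of 6 rose and 2 fell in CIA (median 0.21), and 1 rose and 1 fell with luteolin against CIA (median -0.08). Cd14, which hands lipopolysaccharide to Tlr4, rose from 32.9 ± 3.997 to 86.3 ± 41.0 CPM (1.39 ± 0.30, adjusted p = 0.00300) and stood at 85.9 ± 22.8 with luteolin. Ly96, the MD-2 subunit bound to Tlr4, rose in CIA (0.84 ± 0.24, adjusted p = 0.0144; 0.63 and not called without CIA replicate 2) and fell with luteolin (-0.97 ± 0.24). Lbp, the lipopolysaccharide-binding protein, rose from 0.205 ± 0.256 to 1.47 ± 0.566 and on to 5.64 ± 0.295 CPM (2.75 ± 0.57 and 1.95 ± 0.42; 4.60 in CIA without control replicate 1). Cd180, a receptor relative of B cells, fell from 67.5 ± 0.871 to 20.9 ± 14.0 CPM (-1.69 ± 0.39, adjusted p = 0.00459), and its change with luteolin, 0.26 ± 0.38, was called without CIA replicate 1 (0.88) and turned to -0.15 without CIA replicate 3.

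The 18 kinases and ubiquitin ligases split evenly in CIA, 5 up and 5 down (median -0.01), and 6 rose and 4 fell with luteolin against CIA (median 0.06). Irak1, a kinase that Myd88 recruits, fell from 68.7 ± 2.15 to 42.6 ± 4.97 CPM and rose to 61.5 ± 0.426 with luteolin (-0.69 ± 0.09 and 0.53 ± 0.09). Tab2, a partner of the kinase TAK1, changed by 0.86 ± 0.09 and -0.57 ± 0.09, and the ubiquitin ligase gene Peli1 by 0.59 ± 0.08 and -0.50 ± 0.08. Its relative Peli2 rose in both, by 1.10 ± 0.23 and 1.83 ± 0.22.

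Of 10 transcription factors 2 rose and 6 fell in CIA (median -0.58), and 4 rose and 3 fell with luteolin against CIA (median 0.12). Irf7, which turns endosomal receptor signals into type I interferon, was at 105 ± 4.47 CPM in control, 11.3 ± 2.42 in CIA and 213 ± 17.6 with luteolin, and changed by -3.22 ± 0.14 in CIA (adjusted p = 3.83e-07). Luteolin against CIA gave 4.24 ± 0.15 for Irf7 (adjusted p = 2.68e-08). Irf1, another interferon regulatory factor, changed by -0.52 ± 0.07 and 1.21 ± 0.07, and Relb, of the noncanonical NF-kB branch, by -0.90 ± 0.08 and 0.84 ± 0.08. Rela, the canonical NF-kB subunit, rose weakly in CIA (0.24 ± 0.08, adjusted p = 0.0362) and fell with luteolin (-0.56 ± 0.08, adjusted p = 0.000398). The rise of Rela in CIA was lost without control replicate 2 (0.23), control replicate 3 (0.19), CIA replicate 2 (0.21) or CIA replicate 3 (0.20), in the fit of 6 libraries (0.24), with no filter (0.23) and with the replicate block (0.24).

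Of 12 negative regulators 7 rose and 1 fell in CIA (median 0.39), and 2 rose and 4 fell with luteolin against CIA (median -0.27). Irak3, an inactive kinase that restrains the Myd88 complex, rose from 262 ± 24.7 to 620 ± 142 CPM and fell to 400 ± 17.8 (1.24 ± 0.15 and -0.63 ± 0.15, adjusted p = 0.000111 and 0.00509). Nfkbia, the NF-kB inhibitor, rose by 1.17 ± 0.17 and fell by 0.58 ± 0.17 on the log2 scale, the latter not called without luteolin replicate 2 (-0.50) or in the fit of 6 libraries (-0.55) and -0.32 without CIA replicate 3. Zc3h12a, an RNase that degrades cytokine mRNA, changed by 0.67 ± 0.11 and -0.84 ± 0.11. Tnfaip3, the deubiquitinase A20, rose in CIA (1.25 ± 0.18) and gave -0.39 ± 0.18 with luteolin (adjusted p = 0.101), which was called without CIA replicate 1 (-0.59) and with no filter (-0.36).

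Of 14 tested cytokines and enzymes that the receptors induce, 9 rose and 2 fell in CIA (median 1.83), and 4 rose and 7 fell with luteolin against CIA (median -0.68). Il12b, the shared subunit of IL-12 and IL-23, fell from 4.04 ± 0.253 CPM in control to 0.818 ± 0.3597 in CIA (-2.31 ± 0.27) and rose to 11.1 ± 1.41 with luteolin (3.76 ± 0.26). Il12a, the other IL-12 subunit, did not pass in CIA (-0.17 ± 0.13) and rose with luteolin (1.33 ± 0.13). Cxcl10, an interferon-induced chemokine, rose with luteolin from 0.798 ± 0.229 to 7.42 ± 1.16 CPM (3.21 ± 0.28, adjusted p = 1.02e-05). In CIA its change was -0.72 ± 0.30 (adjusted p = 0.0674), which was called without control replicate 3 (-0.95), without CIA replicate 2 (-0.98) and with no filter (-0.73). Nos2, inducible nitric oxide synthase, rose from 4.95 ± 1.96 to 93.8 ± 49.3 CPM in CIA (4.25 ± 0.45, adjusted p = 5.15e-05) and was at 75.2 ± 26.96 with luteolin (-0.32 ± 0.38, adjusted p = 0.520). The 7 that fell with luteolin were picked out after their values were seen: Il1b, Il23a, Cxcl2, Ccl3, Ccl4, Ptgs2 and Il10, with changes between -0.70 (Il1b, whose libraries overlapped) and -3.50 (Il23a).

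**Figure D5:**
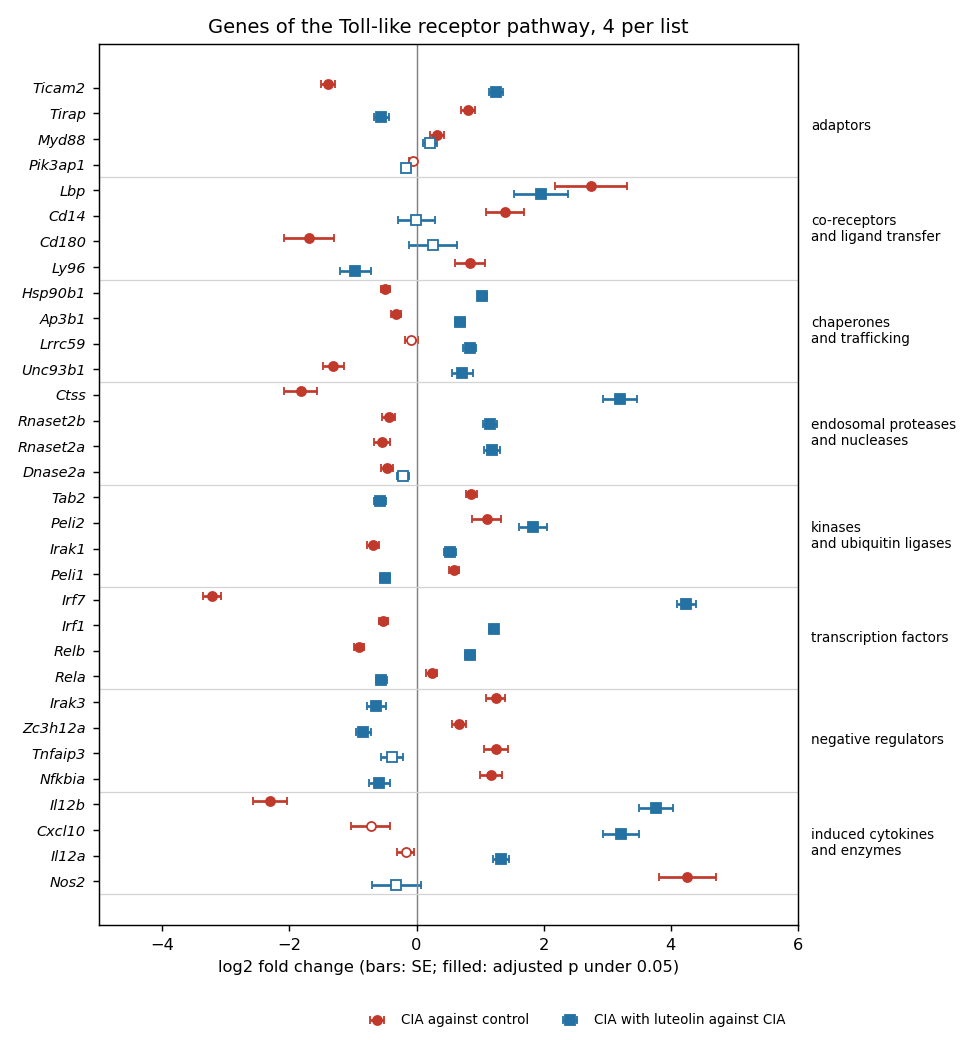
Log2 fold changes with SE for the 4 genes of each pathway list with the smallest p, in CIA against control (circles) and CIA with luteolin against CIA (squares); filled points passed an adjusted p of 0.05. Ticam2, Unc93b1, Ctss, Irf7 and Il12b lie left of 0 in CIA and right of 0 with luteolin, and Irak3, Zc3h12a and Nfkbia the other way round.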

How the data were processed

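The authors deposited 1 table of raw counts of reads per gene for 9 libraries. Per the submitters' processing notes reads were trimmed by Trimmomatic 0.36 and the build was mm39. Per the labels' protocols reads of stranded mRNA libraries were aligned by STRA (so spelled) 2.5.3a to CHOK1GS, a hamster genome name, and exonic reads were counted with featureCounts (Subread 1.5.1). The strand setting and annotation release are not given in the sources used here. The values are whole numbers with a different total in each library. Gene lengths are the table's own, in bases. Even numbers made up 73.4% of the 84618 values from 1 to 10 and 52.8% of the 43217 values above 200 and up to 1000, so each mate may have been counted separately.

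The counts were tested with edgeR 4.0.16 in R 4.3.3: filterByExpr by group (19348 genes), TMM scaling, a quasi-likelihood fit of all 9 libraries, glmQLFTest, 2-sided, adjusted over all tested genes, threshold 0.05. The SE was taken from the F statistic (absolute log2 change over its root). The procedure was also run on simulated counts in which far fewer genes changed than were called here. That run does not show its error rate in these data. Libraries within a group differed by a chi-square of 5.51 or more per degree of freedom, so none was a copy of another library. This value cannot tell separate animals from separate preparations of the same animal or pool. All 10 members are named, with up to 4 genes per pathway list by smallest p and the 3 genes most correlated with each member, of which 1 is not reported here. The members, lists and tests were chosen with earlier results of these data known. The alternatives were DESeq2 1.42.0, other scalings and filters, the 6 libraries compared, halved counts, a replicate block and leaving out each library.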

Additional observations from a re-analysis of the deposited data

How the results depend on the processing

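Of 413 values of the 10 receptors under the alternatives, 396 kept their call or lack of one, 10 were no longer called, 7 became called, and no called value reversed. The 396 include uncalled values whose sign changed, such as Tlr2 in CIA against control, at 0.18 and, without CIA replicate 3, -0.17. The number of receptors called in luteolin against CIA was 5 and ranged from 4 to 8 when a library was left out, with 8 without CIA replicate 1. The shares of all genes called in those fits are not given here. Under each other alternative the counts of receptors in the 3 comparisons stayed within 1.5 times. Tlr5 was not tested at a minimum count of 50 or with counts halved. Of 2642 values of other named genes 60 were no longer called, 31 became called and none called reversed. Whether libraries with the same replicate number form pairs or batches is not given in the sources used here. Their deviations from the group means correlated at 0.007 to 0.143. In 16 of 18 comparisons with another group a library was most like its own number. The main fit had no term for the replicate number. With the replicate block 7, 5 and 6 receptors were called in the 3 comparisons, with no receptor's call changed. Of all genes called, CIA against control had 9794 with the block and 9886 without. Of all genes called, CIA with luteolin against CIA had 9148 in both fits, and of all genes called, CIA with luteolin against control had 8764 with the block and 8708 without. Depth limits Tlr5, Tlr3 and, outside luteolin, Tlr8.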
